A study of Homo sapiens with 9 samples.

Results

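The RNA levels of 10 genes of the NF-kB system, NFKB1, NFKB2, RELA, RELB, NFKBIA, NFKBIE, TNFAIP3, BIRC3, TRAF1 and ICAM1, were followed in BEAS-2B cells, an immortalized human bronchial epithelial cell line. The genes were chosen by name as subunits of the transcription factor, its inhibitors and genes that NF-kB is known to induce. Earlier results of these data were known at that time, so shares of all genes are set beside their counts as a description. Each symbol matched 1 Ensembl identifier among the 63187 genes of the count table, and all 10 were among the 16030 genes tested. Cells received no condensate (control), or were exposed for 24 h to condensed aerosol at a 2% dilution. The aerosol came either from the carrier alone, a mix of propylene glycol with vegetable glycerine (PG/VG), or from an e-cigarette liquid containing nicotine at 18 mg/mL and a Virginia tobacco flavor (EC). EC therefore differed from PG/VG in nicotine and flavor together. The ratio of propylene glycol to glycerol in the commercial EC liquid is not stated, so it may have differed as well. Each condition had 3 libraries of poly-A RNA, described as biological replicates, which carry the batch numbers 2, 3 and 4 in the sample labels. The cells are 1 line grown in serum-containing medium, and they met condensed liquid, not aerosol.

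NF-kB is a family of transcription factors that act as dimers. In resting cells, IkB proteins hold the dimers in the cytoplasm. In the canonical route, IkB is degraded after stimulation and RELA with the NFKB1 product enters the nucleus, whereas in the noncanonical route the kinase encoded by MAP3K14 leads to processing of the NFKB2 precursor and release of RELB dimers. Many NF-kB targets encode proteins of the system itself, among them NFKB2, RELB, NFKBIA, TNFAIP3, BIRC3 and TRAF1, so their RNA levels are often followed as a readout of feedback. In airway epithelium the system induces chemokines and adhesion molecules that recruit leukocytes.

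The decameric kB consensus, the sequence bound by NF-kB dimers, was looked for on both strands in the 250 bases upstream of the RefSeq start sites on GRCh38.p14. Windows were at hand for 8 of the 10 genes, 14 windows in all, and not for RELB and NFKBIE. The consensus was present in at least 1 window of 5 genes, NFKB1, NFKB2, TNFAIP3, BIRC3 and NFKBIA, beside 8.22% of the 27305 genes with a window. By window, 6 of the 14 held it, beside 6.88% of all 35116 windows. The genes were chosen partly as known NF-kB targets, so these shares describe that choice and test nothing. The upstream stretch of 4 of the 6 windows is printed here, without the exonic part beyond 1 base of NFKB2. Such feedback genes are known to answer to NF-kB through kB elements. Letters are given on the strand of the gene, capitals mark each match, and matches can lie on either strand.
TNFAIP3, chr6:137867009-137867213, plus strand: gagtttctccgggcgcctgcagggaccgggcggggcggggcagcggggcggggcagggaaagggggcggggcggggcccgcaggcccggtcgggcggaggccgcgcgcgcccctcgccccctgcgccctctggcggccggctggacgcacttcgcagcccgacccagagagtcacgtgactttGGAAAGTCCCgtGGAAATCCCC
BIRC3, chr11:102317234-102317483, plus strand: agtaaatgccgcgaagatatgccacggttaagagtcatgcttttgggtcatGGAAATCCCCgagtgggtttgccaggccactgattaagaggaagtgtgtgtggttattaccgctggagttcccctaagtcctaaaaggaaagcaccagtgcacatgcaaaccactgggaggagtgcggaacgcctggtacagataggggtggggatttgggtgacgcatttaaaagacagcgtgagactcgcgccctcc
NFKBIA, chr14:35404750-35404999, minus strand: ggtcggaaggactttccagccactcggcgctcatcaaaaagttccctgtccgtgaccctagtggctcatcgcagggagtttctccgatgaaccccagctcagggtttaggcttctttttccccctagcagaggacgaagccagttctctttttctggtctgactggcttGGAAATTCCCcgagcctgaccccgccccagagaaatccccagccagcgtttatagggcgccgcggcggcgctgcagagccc
NFKB2, chr10:102395455-102395693, plus strand: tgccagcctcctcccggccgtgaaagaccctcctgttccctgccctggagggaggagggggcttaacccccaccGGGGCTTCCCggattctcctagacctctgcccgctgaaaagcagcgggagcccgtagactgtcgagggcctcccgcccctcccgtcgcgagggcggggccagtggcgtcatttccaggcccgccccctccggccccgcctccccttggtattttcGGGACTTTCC
The pair of TNFAIP3 matches lay 67 to 58 and 55 to 46 bases upstream of the start, and the NFKBIA match 81 to 72 bases upstream. The BIRC3 match lay farther out, at 199 to 190 bases. The NFKB2 window shown, at the most downstream of its 3 start sites, held a match at 176 to 167 bases and another at 21 to 12 bases. The middle NFKB2 window held the palindrome GGGAATTCCC at chr10:102394471-102394480, counted once although it reads the same on both strands, and GGGGCTTTCC at chr10:102394500-102394509. NFKB1 had GGGAATTTCC at chr4:102501310-102501319. The NFKB1 match and those of the middle NFKB2 window lie within annotated exons. No match was found in the windows of RELA, TRAF1 or ICAM1, which says only that these letters are not in those windows.

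In the control, RELA had the highest level per kb of its canonical transcript, with 46.7 ± 1.83 TMM-normalized CPM (counts scaled to a common library total) per kb (SD, n = 3). NFKBIA with 27.5 ± 1.71, ICAM1 with 25.6 ± 4.22, NFKB2 with 20.4 ± 3.30 and NFKB1 with 18.0 ± 1.35 CPM per kb followed. Lower levels per kb were found for NFKBIE (8.61 ± 1.51), RELB (6.98 ± 1.31), TNFAIP3 (4.49 ± 2.37) and BIRC3 (2.46 ± 0.489), and TRAF1 was lowest with 0.442 ± 0.0487 CPM per kb. The ranges of the 3 control libraries overlapped between NFKBIA and ICAM1, ICAM1 and NFKB2, and NFKB2 and NFKB1. They also overlapped between NFKBIE and RELB, RELB and TNFAIP3, and TNFAIP3 and BIRC3. The ranges alone therefore do not order these neighbours, and their levels were not compared within each library. The order depends on the length used. With all annotated exons merged, ICAM1 came first at 22.1 CPM per kb and NFKB1, whose merged exons span 15679 bp, fell to the seventh place.

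Depth ranged from 16168260 to 24917838 counts per library, and mitochondrial genes took 1.32% to 1.92% of them. The control libraries were the shallowest, with 16168260 to 17882770 counts, and the PG/VG and EC libraries had 18427225 to 24917838. Comparisons with control therefore also set shallower against deeper libraries. Keratins of the labelled epithelial type were abundant (KRT8, 1058 CPM in the control mean), although 3 of 10 epithelial markers, among them KRT5 and CDH1, stayed under 1 CPM in the control mean. The summed level of the epithelial markers was 1977 to 3144 CPM in control, 1955 to 3078 in PG/VG and 1683 to 2624 in EC libraries. The 8 leukocyte markers summed to 9.96 to 11.02, 12.01 to 14.5 and 10.3 to 16.5 CPM, which came from CD14 and CD74, while the defining markers PTPRC (0, 2 and 2 counts per condition) and CD3E (0 counts) were at or near 0. The endothelial list summed to at most 10.6 CPM, and the fibroblast list, led by VIM, to 924 to 1200 CPM. The batch 4 libraries stood apart from those of batches 2 and 3. Across all genes tested, 14.5% were higher and 14.6% lower in the 3 batch 4 libraries than in each of the other 6. Of the 10 genes, TNFAIP3 and NFKBIE were higher there and NFKBIA lower. The model therefore compared conditions with the batch as a term, and differences are also given within each batch.

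**Figure D1:**
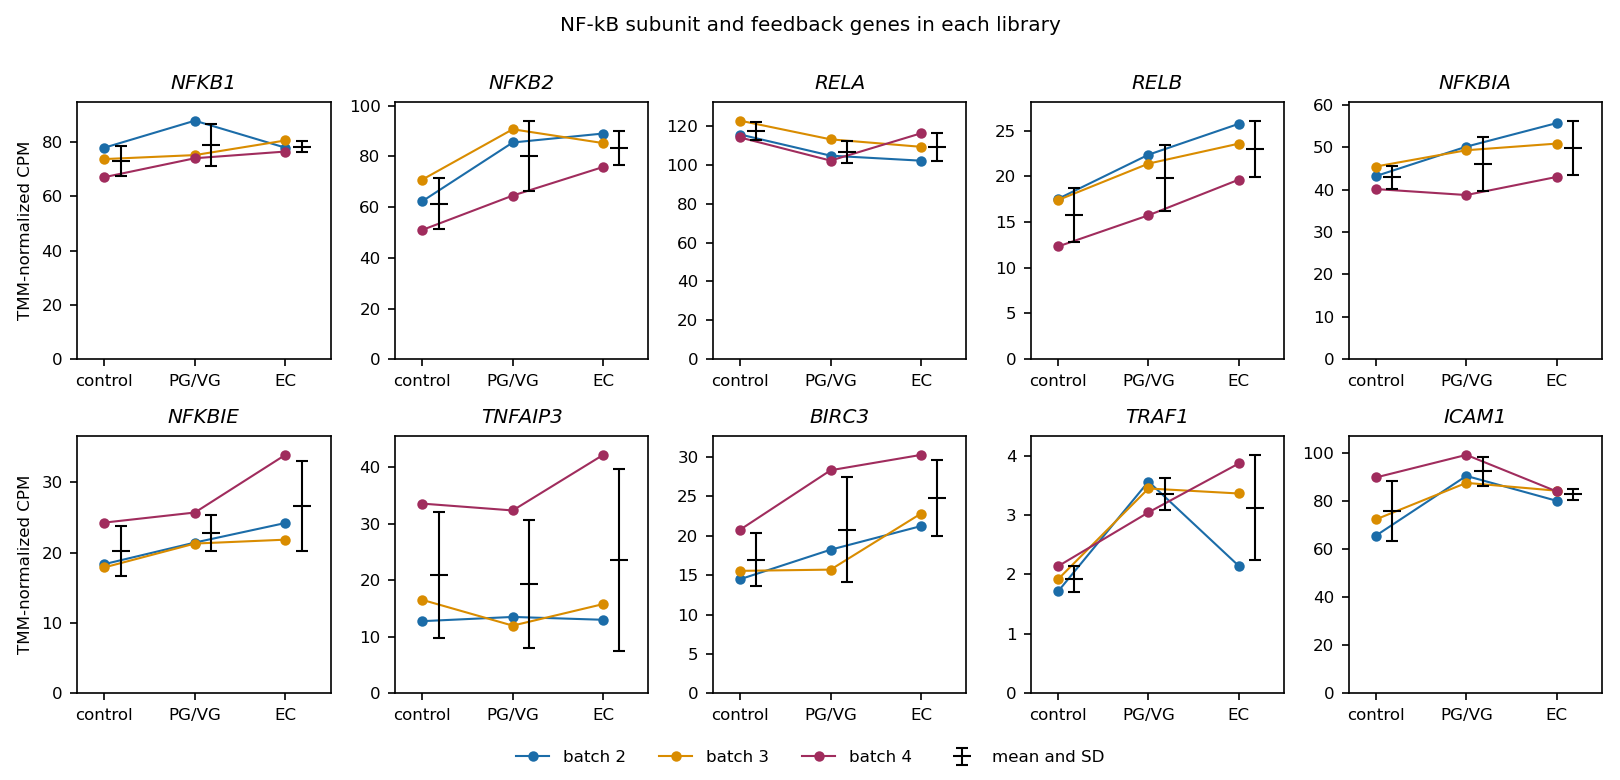
TMM-normalized CPM of the 10 genes (y axes from 0, each gene on its own scale) in control, PG/VG and EC, with lines joining the libraries of a batch and black bars for the mean and SD of 3 libraries. NFKB2 and RELB rose from control to EC in every batch, and the batch 4 libraries of TNFAIP3 (32.3 to 42.2 CPM) lay above the others (11.98 to 16.5 CPM).

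In EC vs. control, which asks what the complete e-cigarette condensate did, NFKB2, RELB, NFKBIE and BIRC3 were upregulated, by 31.2% to 46.5%. These 4 of 10 genes passed edgeR's quasi-likelihood test at an adjusted p under 0.05, a threshold that 13.5% of all genes tested passed and 8.07% passed upward. The other 6 genes did not pass, and RELA was the single one with a negative log2 fold change (LFC), -0.11. Downward calls were 0 of 10 in edgeR, at an unadjusted p under 0.05 and in DESeq2, beside 5.38% of all genes in edgeR. The median LFC of the 10 genes was 0.30, and that of all genes tested was 0.0078. NFKB2, RELB, BIRC3 and TRAF1 had no overlap between EC and control libraries, all being higher, as did 9.83% of all genes upward and 7.42% downward. In 6 genes, NFKB2, RELB, NFKBIA, NFKBIE, BIRC3 and TRAF1, EC was higher in every batch and the unadjusted p was under 0.05, beside 24.4% of all genes higher and 21.7% lower in every batch and 27.4% with such a p. In bulk RNA, a change in the RNA per cell and a change in the share of cells carrying it cannot be told apart.

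Among the subunits, the noncanonical pair rose and the canonical pair did not pass the test. NFKB2 (ENSG00000077150, chromosome 10, 102394110 to 102402524, plus strand) encodes the precursor that noncanonical signalling processes. Its level was 62.3, 70.8 and 51.0 CPM in control replicates 2, 3 and 4, and 89.0, 85.2 and 75.8 CPM in the EC replicates. Every EC library was above every control library, although batch 4 was the lowest of both groups. The LFC was 0.45 ± 0.078 (SE) with an adjusted p of 0.000453 in edgeR, and within batches 2, 3 and 4 the log2 differences were 0.51, 0.27 and 0.57.

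RELB (ENSG00000104856, chromosome 19, 45001461 to 45038192, plus strand) encodes the partner of the processed NFKB2 product. Control libraries had 17.5, 17.4 and 12.3 CPM and EC libraries 25.7, 23.6 and 19.6 CPM, again without overlap and again lowest in batch 4. The LFC was 0.55 ± 0.096 with an adjusted p of 0.000483 in edgeR, from within-batch log2 differences of 0.55, 0.44 and 0.67. NFKB2 and RELB kept their calls in all 9 fits that left out 1 library, with LFC values of 0.36 to 0.54 and 0.49 to 0.60.

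NFKB1 (ENSG00000109320, chromosome 4, 102501330 to 102617302, plus strand), the precursor of the canonical DNA-binding partner, had 77.9, 73.8 and 67.1 CPM in control and 78.0, 80.6 and 76.5 CPM in EC. The groups overlapped, since the batch 2 libraries were nearly equal, and the LFC of 0.11 ± 0.075 did not pass (adjusted p = 0.387, edgeR). RELA (ENSG00000173039, chromosome 11, 65653599 to 65663090, minus strand), the transactivating canonical subunit, had 116, 123 and 114 CPM in control and 102, 109 and 116 CPM in EC. Its LFC was -0.11 ± 0.071 (adjusted p = 0.367, edgeR), with log2 differences of -0.18 and -0.17 in batches 2 and 3 and 0.027 in batch 4. For both genes the interval of 2 SE, -0.043 to 0.26 for NFKB1 and -0.25 to 0.037 for RELA, included 0.

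The ratio of NFKB2 to NFKB1 read counts within each library, which is free of library scaling but not of gene length, was 0.80, 0.96 and 0.76 in control, 0.97, 1.21 and 0.87 in PG/VG and 1.14, 1.06 and 0.99 in EC. It was higher than control in every batch under both condensates, and the EC libraries did not overlap with control while the PG/VG libraries did. The ratio of RELB to RELA read counts was 0.134 ± 0.0229 (SD, n = 3) in control, 0.186 ± 0.0299 in PG/VG and 0.212 ± 0.0417 in EC. It too was higher than control in each batch. The ratios are given as values, with no test.

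**Figure D2:**
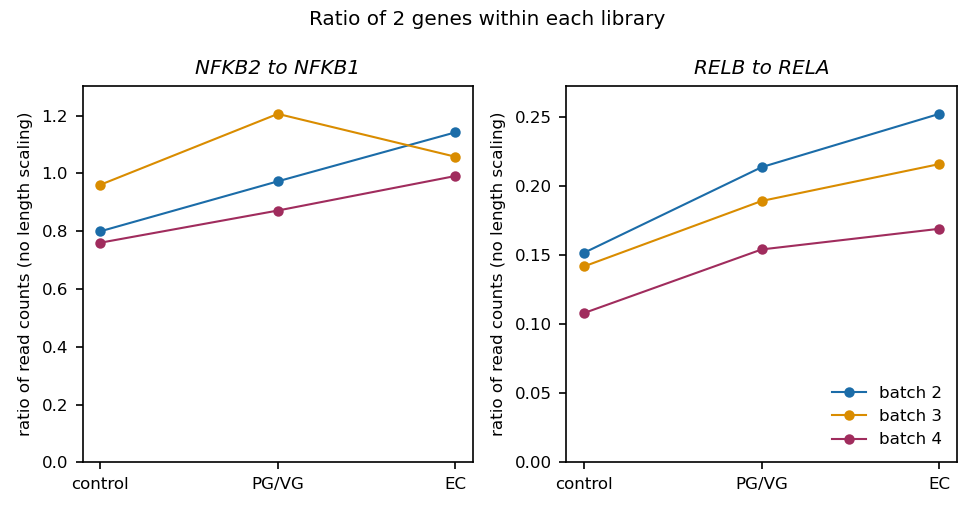
Ratio of NFKB2 to NFKB1 and of RELB to RELA read counts (y axes from 0, no length scaling) in control, PG/VG and EC libraries, joined by batch. Both ratios lie above control in each batch for both condensates, and in batch 3 the NFKB2 to NFKB1 ratio is higher in PG/VG (1.21) than in EC (1.06).

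Of the inhibitors, NFKBIE rose in EC. NFKBIE (ENSG00000146232, chromosome 6, 44258166 to 44265788, minus strand) encodes IkB-epsilon, a slow feedback inhibitor of RELA dimers. It had 18.4, 17.9 and 24.3 CPM in control and 24.2, 21.8 and 33.9 CPM in EC. The groups overlapped through batch 4, whose control library was above the EC libraries of batches 2 and 3, while within batches EC was higher in all 3. The LFC was 0.39 ± 0.094 (adjusted p = 0.00753, edgeR). The call was lost without EC replicate 4 (LFC 0.30, adjusted p = 0.0884, edgeR) and without the batch 4 libraries (LFC 0.33, adjusted p = 0.081).

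NFKBIA (ENSG00000100906, chromosome 14, 35401079 to 35404749, minus strand) encodes IkB-alpha, the fast feedback inhibitor. Its libraries had 43.2, 45.5 and 40.1 CPM in control and 55.7, 50.9 and 43.0 CPM in EC. EC was higher in each batch, by log2 differences of 0.37, 0.16 and 0.099, and the groups overlapped through batch 4. The LFC of 0.21 ± 0.080 did not pass (adjusted p = 0.0869, edgeR), and passed under 1 of the 9 other settings, scaling by library size alone (adjusted p = 0.0239).

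TNFAIP3 (ENSG00000118503, chromosome 6, 137867214 to 137883314, plus strand) encodes A20, a ubiquitin-editing enzyme that shuts off signalling to the IkB kinase. Its level differed more between batches than between conditions. Batch 4 libraries had 33.5, 32.3 and 42.2 CPM in control, PG/VG and EC, and those of batches 2 and 3 had 11.98 to 16.5 CPM, a 2.58-fold difference. In EC vs. control the LFC was 0.12 ± 0.11 (adjusted p = 0.546, edgeR), and it turned to -0.013 without EC replicate 4 and to -0.039 without the batch 4 libraries.

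BIRC3 (ENSG00000023445, chromosome 11, 102317484 to 102339403, plus strand) encodes cIAP2, a ubiquitin ligase that joins TNF receptor complexes and takes part in the turnover of the MAP3K14 kinase. It had 14.5, 15.5 and 20.8 CPM in control and 21.2, 22.8 and 30.3 CPM in EC. The groups did not overlap and the within-batch log2 differences were nearly equal, 0.55, 0.55 and 0.54. The LFC was 0.55 ± 0.10 with an adjusted p of 0.000879 in edgeR, and the call held in all 9 fits without 1 library.

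TRAF1 (ENSG00000056558, chromosome 9, 120902393 to 120929173, minus strand), an adaptor that binds TRAF2 and the cIAP proteins, was the least abundant of the 10 genes, with 27 to 87 counts per library. It had 1.72, 1.92 and 2.14 CPM in control and 2.14, 3.36 and 3.87 CPM in EC. Every EC library was above every control library, narrowly so for EC replicate 2 against control replicate 4. The LFC of 0.68 ± 0.23 had an adjusted p of 0.0522 in edgeR, just outside the threshold. It passed in 3 of 9 fits without 1 library, those without EC replicate 2 (0.017), PG/VG replicate 2 (0.0462) or PG/VG replicate 4 (0.0497). It also passed under 3 of 9 other settings: library size scaling (0.0306), no count filter (0.0476), and ComBat-Seq with DESeq2 (0.0393).

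ICAM1 (ENSG00000090339, chromosome 19, 10271093 to 10286615, plus strand), the adhesion molecule to which leukocyte integrins bind, had 65.8, 72.5 and 90.0 CPM in control and 80.3, 84.5 and 84.2 CPM in EC. EC was higher than control in batches 2 and 3 and lower in batch 4, and the LFC of 0.13 ± 0.079 did not pass (adjusted p = 0.292, edgeR). Of the merged exons of ICAM1, 25.4% overlap other annotated genes (ICAM4-AS1 and LIMASI), and the strand setting of the counting is not given in the sources used here. Multi-overlapping reads were ignored in the counting, so some ICAM1 reads may have been lost there.

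**Figure D3:**
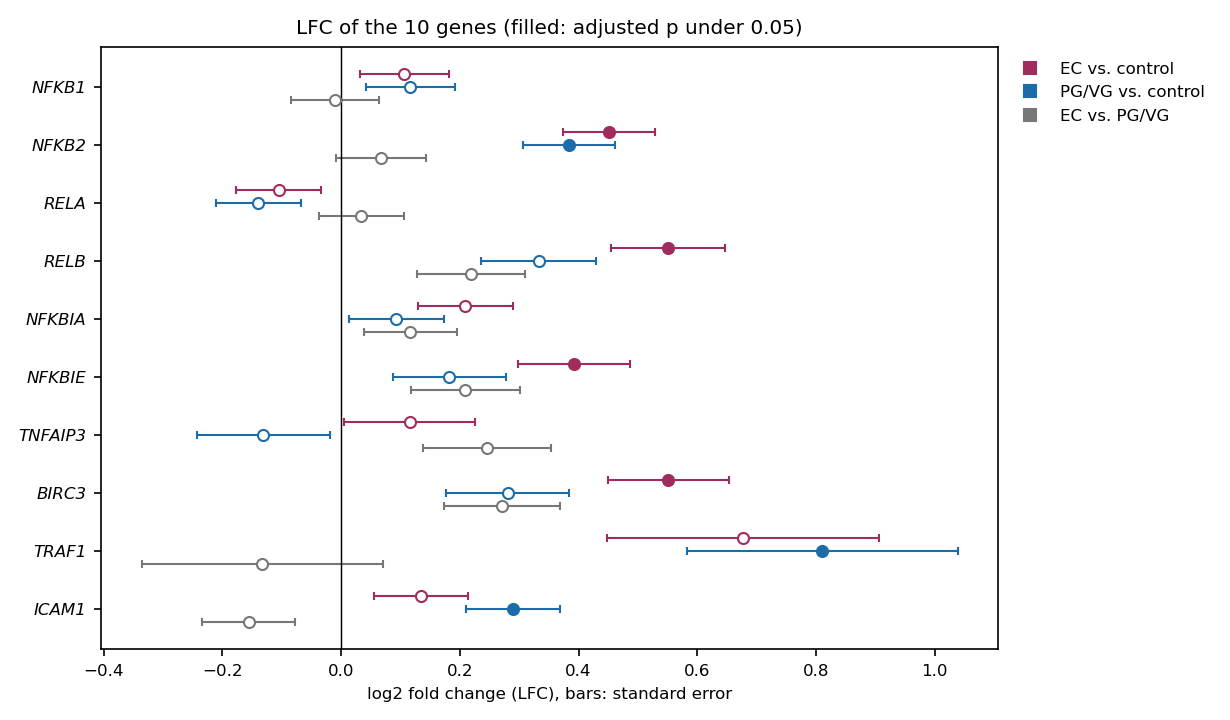
LFC of the 10 genes (x axis, log2 scale) for EC and for PG/VG against control and for EC against PG/VG, with bars of 1 SE and filled points for an adjusted p under 0.05 in edgeR's quasi-likelihood test. NFKB2, RELB, NFKBIE and BIRC3 are filled for EC vs. control, NFKB2, TRAF1 and ICAM1 for PG/VG vs. control, and none for EC vs. PG/VG.

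In PG/VG vs. control, which asks for the response to the carrier liquid, NFKB2, TRAF1 and ICAM1 were upregulated by 30.5%, 75.3% and 22.2%. These 3 of 10 calls stand beside 4.54% of all genes tested, 2.63% upward and 1.90% downward. In 7 genes PG/VG was higher than control in every batch, as in 23.3% of all genes, and in RELA it was lower, as in 20.1%. The unadjusted p was under 0.05 for 5 genes, NFKB2, RELB, BIRC3, TRAF1 and ICAM1, and for 20.1% of all genes. The median LFC was 0.23 for the 10 genes and 0.013 for all genes tested. Both condensates were compared with the same control libraries, so the values of the comparisons are not independent.

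NFKB2 had 85.5, 90.7 and 64.5 CPM in PG/VG, with log2 differences from control of 0.46, 0.36 and 0.34 in batches 2, 3 and 4. The groups overlapped, because PG/VG replicate 4 was below control replicate 3, and the difference was even across batches. The LFC was 0.38 ± 0.078 (adjusted p = 0.00576, edgeR), and the adjusted p was 0.0579 without PG/VG replicate 2. RELB had 22.4, 21.4 and 15.7 CPM, with log2 differences of 0.35, 0.30 and 0.35. Its LFC of 0.33 ± 0.097 narrowly missed the threshold (adjusted p = 0.0508, edgeR), and it passed under 4 of 9 other settings and without EC replicate 3 (0.0485).

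NFKB1 had 87.9, 75.2 and 74.1 CPM in PG/VG and an LFC of 0.12 ± 0.075 (adjusted p = 0.405, edgeR). RELA had 105, 113 and 102 CPM, below control in each batch and without overlap with it, where 6.37% of all genes were lower without overlap. Its LFC of -0.14 ± 0.071 did not pass (adjusted p = 0.281, edgeR).

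The inhibitors did not pass in PG/VG. NFKBIA had 50.1, 49.3 and 38.7 CPM, with an LFC of 0.093 (adjusted p = 0.561, edgeR), and NFKBIE had 21.4, 21.3 and 25.7 CPM, with an LFC of 0.18 (adjusted p = 0.293). TNFAIP3 had 13.5, 11.98 and 32.3 CPM and an LFC of -0.13 (adjusted p = 0.555), with log2 differences of 0.081, -0.46 and -0.053 in batches 2, 3 and 4. For the 3 genes the interval of 2 SE included 0.

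BIRC3 had 18.2, 15.7 and 28.3 CPM in PG/VG. The log2 differences were 0.33, 0.014 and 0.45, so that batch 3 hardly differed from its control, and the LFC of 0.28 ± 0.10 did not pass (adjusted p = 0.125, edgeR; 0.0446 without PG/VG replicate 3). TRAF1 had 3.56, 3.45 and 3.04 CPM, all above the control libraries, and 7.79% of all genes were higher without overlap. Its LFC was 0.81 ± 0.23 (adjusted p = 0.0432, edgeR), and the call held in 2 of 9 fits without 1 library, those without PG/VG replicate 4 and EC replicate 2. Without the others the adjusted p ran from 0.0502 (EC replicate 3), 0.0509 (EC replicate 4), 0.0725 (PG/VG replicate 3), 0.0991, 0.111 and 0.146 (control replicates 4, 2 and 3) to 0.343 (PG/VG replicate 2). DESeq2 gave 0.0789.

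ICAM1 had 90.6, 87.7 and 99.4 CPM in PG/VG, higher than the control of its batch in each case, by log2 differences of 0.46, 0.27 and 0.14. The groups overlapped through control replicate 4, and the difference was smallest in batch 4. The LFC was 0.29 ± 0.079 (adjusted p = 0.0381, edgeR). The call held in 5 of 9 fits without 1 library and was lost without control replicates 2 (0.268) and 3 (0.195) and PG/VG replicates 2 (0.251) and 4 (0.104).

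**Figure D4:**
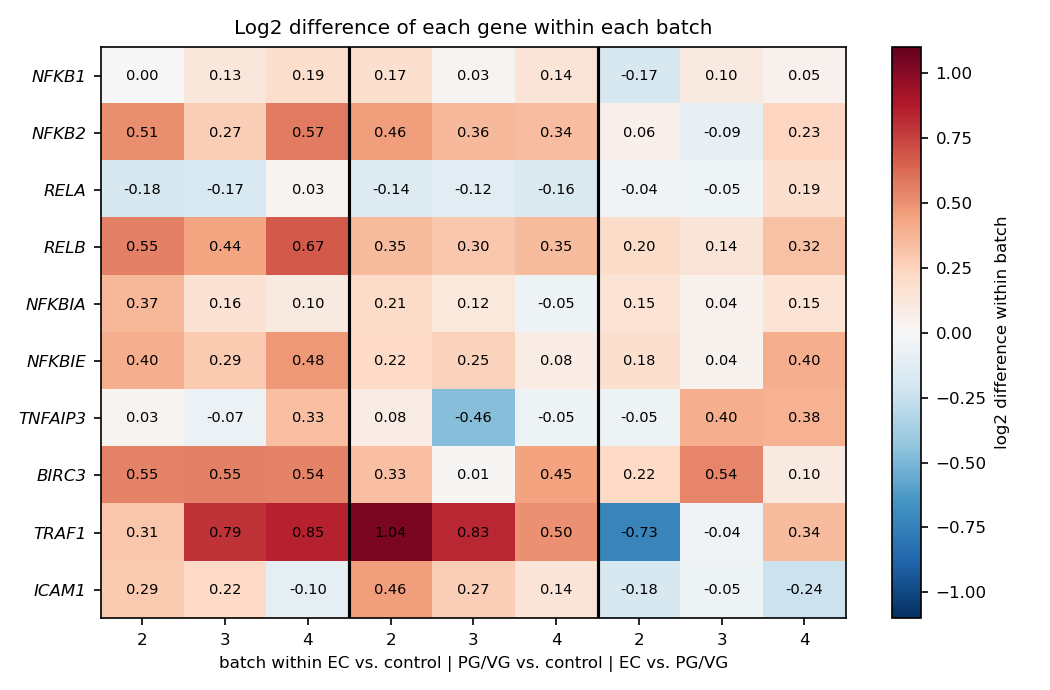
Log2 difference of each of the 10 genes within batches 2, 3 and 4 (columns) for EC and for PG/VG against control and for EC against PG/VG, from raw counts scaled by TMM library size with 0.5 counts added, red for higher and blue for lower. RELB, NFKBIE and BIRC3 are higher in all batches of all comparisons, and ICAM1 is higher than control in PG/VG but lower in EC than in PG/VG in each batch.

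EC vs. PG/VG asks what nicotine and flavor together added to the carrier, along with any difference in the ratio of propylene glycol to glycerol. edgeR's quasi-likelihood test called 0 of the 10 genes, where 0.855% of all genes tested were called, and DESeq2, with the batch in the model or after ComBat-Seq, also called 0. At an unadjusted p under 0.05 there were 4, RELB, NFKBIE, TNFAIP3 and BIRC3, all with a higher value in EC, beside 12.9% of all genes. The difference between the EC and PG/VG responses was therefore not shown for any single gene, also where a call was made against control in 1 of them alone.

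The LFC in EC vs. PG/VG was 0.27 (interval of 2 SE 0.075 to 0.47) for BIRC3, 0.25 (0.031 to 0.46) for TNFAIP3, 0.22 (0.035 to 0.40) for RELB and 0.21 (0.027 to 0.39) for NFKBIE. Their adjusted p in edgeR was 0.21, 0.328, 0.3 and 0.326. RELB, NFKBIE, BIRC3 and NFKBIA, the last with an LFC of 0.12, were higher in EC in each batch, which 16.7% of all genes were. TNFAIP3 was higher in batches 3 and 4 and lower in batch 2.

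NFKB2, which passed against control under both condensates, differed between them by 0.067 (interval -0.085 to 0.22). NFKB1 (-0.010, interval -0.16 to 0.14) and RELA (0.034, interval -0.11 to 0.18) also had intervals around 0, and the signs of NFKB1, NFKB2 and RELA changed under some settings. TRAF1, at -0.13, had the widest interval, -0.54 to 0.27. ICAM1 was lower in EC than in PG/VG in all batches, which 14.6% of all genes were, and without overlap (LFC -0.16 ± 0.078, adjusted p = 0.412, edgeR), as were 3.37% of all genes without overlap.

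The rest of the pathway was described with 100 further genes in 5 lists, of which 89 were tested. These lists too were chosen with earlier results of these data known. In EC vs. control 15 of the 89 (16.9%) passed the test, each of them upward, beside 13.5% of all genes and 8.07% upward. Among receptors and adaptors 7 of 26 (26.9%) passed, with a list median LFC of 0.17. TLR3, the endosomal receptor for double-stranded RNA, had 13.5, 11.2 and 15.0 CPM in control and 20.2, 19.2 and 26.5 CPM in EC, and its LFC was 0.73 ± 0.10 (adjusted p = 6.56e-05, edgeR). TLR2 (0.91) and TLR6 (0.80), partners in the recognition of bacterial lipoproteins, and IL1R1 (0.52), the interleukin-1 receptor, were lower in abundance, with TLR2 at 0.62 to 2.18 CPM. The calls of TLR2, TLR6 and IL1R1 held in 2, 6 and 4 of 9 fits without 1 library. DESeq2 gave them an adjusted p of 0.131, 0.0371 and 0.0922. The remaining calls in this list were CD40 (0.45), TNFRSF11A (0.34) and LTBR (0.23), which belong to the TNF receptor family and are named here after their values were seen. Other tested receptors of the 2 families did not pass. TNFRSF1A (-0.076), TNFRSF12A (-0.11) and TLR4 (-0.12) had negative LFC values, and TNFRSF1B (0.77) and TLR1 (1.89) positive ones. TNFRSF12A was at 219 CPM in the control mean and TLR1 at 0.14 CPM.

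Of 18 kinases and ubiquitin ligases, MAP3K14 and TAB3 passed (11.1%, beside 13.5% of all genes), and the list median was 0.047. MAP3K14, the kinase of the noncanonical route, had 26.9, 29.8 and 32.2 CPM in control, 39.0, 40.7 and 38.8 CPM in PG/VG and 34.2, 37.2 and 53.9 CPM in EC. Both treated groups lay above control, and the LFC was 0.48 ± 0.11 in EC (adjusted p = 0.00462, edgeR) and 0.42 ± 0.11 in PG/VG (adjusted p = 0.0245). The call in EC held in 8 of 9 fits without 1 library and was lost without EC replicate 4 (LFC 0.28, adjusted p = 0.0854) and without the batch 4 libraries (adjusted p = 0.0513). In PG/VG it held in 4 of 9, with the highest adjusted p, 0.219, without PG/VG replicate 2. TAB3, a subunit of the TAK1 kinase complex, had an LFC of 0.26 in EC (adjusted p = 0.0491, edgeR). It was higher in 2 of 3 batches, and the groups overlapped. Its call held in 3 of 9 fits without 1 library. The adjusted p of TAB3 was 0.0979 in DESeq2 and 0.454 without the batch 4 libraries.

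Of 5 other subunits and IkB proteins, BCL3, a nuclear IkB protein that binds homodimers of the NFKB1 and NFKB2 products, passed in EC (LFC 0.35, adjusted p = 0.0268, edgeR), and the list median was 0.21. Of 13 negative regulators, NLRC5 passed (7.69%, beside 13.5% of all genes; LFC 0.30, adjusted p = 0.0372), and the median was -0.018. The calls of BCL3 and NLRC5 each held in 4 of 9 fits without 1 library. DESeq2 gave them an adjusted p of 0.0635 and 0.0668. Without the batch 4 libraries the adjusted p in edgeR was 0.0563 for BCL3 and 0.0187 for NLRC5. NLRC5 is also known as an activator of MHC class I genes.

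Of 27 other target genes, 4 passed in EC (14.8%, near the 13.5% of all genes), with a list median of 0.16. CD83, a surface glycoprotein, had 11.4, 12.1 and 6.98 CPM in control and 17.1, 16.3 and 11.5 CPM in EC (LFC 0.57, adjusted p = 0.00286, edgeR). The others were PTGS2, the inducible cyclooxygenase, at 0.71, EFNA1, a ligand of Eph receptors, at 0.37 and the transcription factor IRF1 at 0.35. PTGS2 had 1.65 to 2.93 CPM in control and hardly differed in batch 3 (1.92 CPM in control and in EC). The calls of PTGS2, EFNA1 and IRF1 held in 4, 5 and 7 of 9 fits without 1 library. DESeq2 gave them an adjusted p of 0.116, 0.0663 and 0.0197. The total of 15 ran from 6 to 16 when 1 library was left out. It was 8, 6, 9 and 8 without control replicates 2 and 3 and EC replicates 3 and 4, 8 without the batch 4 libraries and 8 in DESeq2. Some calls were downward in 2 of these fits, 2 of 12 without EC replicate 2 and 1 of 8 without EC replicate 4.

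**Figure D5:**
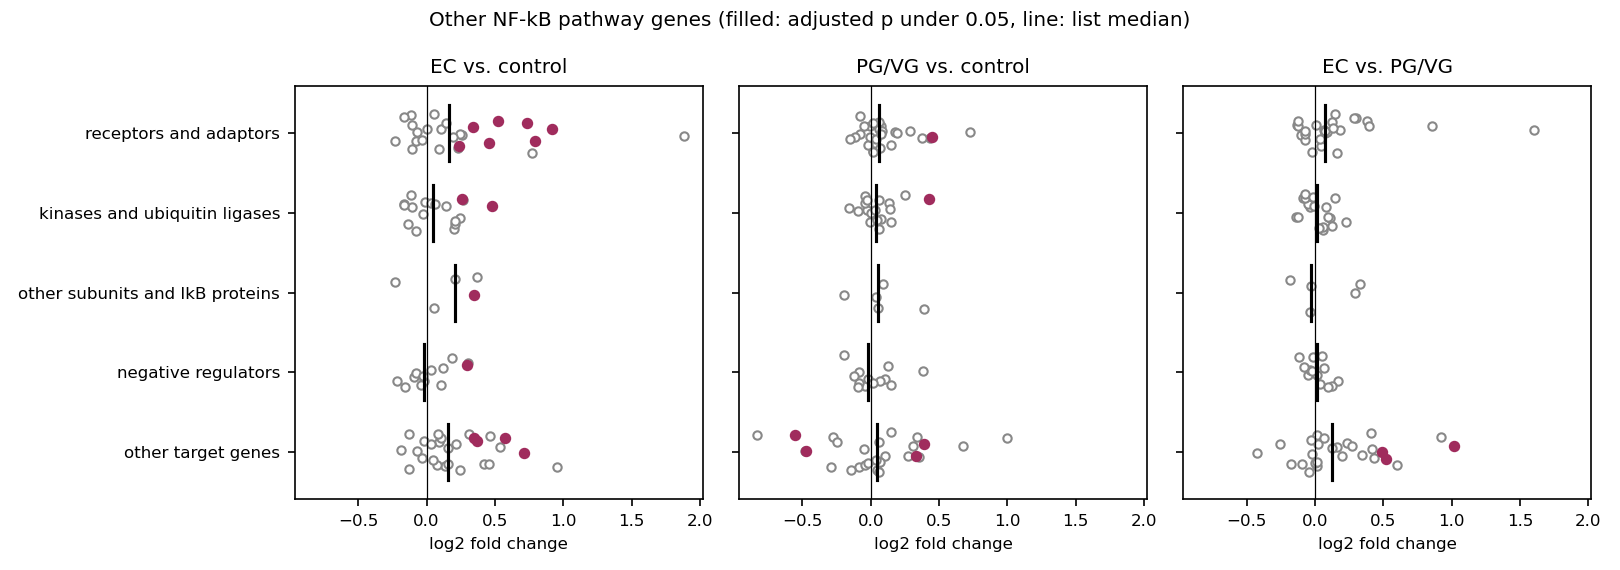
LFC (x axes, log2 scale) of the 89 tested pathway genes in 5 lists for the 3 comparisons, with filled points for an adjusted p under 0.05 in edgeR and a black line at each list's median. In EC vs. control 15 filled points lie to the right of 0, and in PG/VG vs. control 4 lie to the right and 2 to the left.

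In PG/VG vs. control 6 of the 89 genes (6.74%) passed, beside 4.54% of all genes. TLR3 (LFC 0.44), MAP3K14, IRF1 (0.33) and TNFAIP2 (0.39), a TNF-inducible gene, were upregulated. The calls of TLR3, IRF1 and TNFAIP2 held in 5, 4 and 5 of 9 fits without 1 library. Without the batch 4 libraries their adjusted p in edgeR was 0.192, 0.26 and 0.016. The interleukin-1 genes fell. IL1A had 17.7, 13.6 and 17.8 CPM in control and 9.05, 9.85 and 14.9 CPM in PG/VG (LFC -0.55 ± 0.12, adjusted p = 0.0115, edgeR). IL1B had 28.7, 28.3 and 109 CPM in control and 19.7, 20.4 and 81.4 CPM in PG/VG (LFC -0.47 ± 0.10, adjusted p = 0.00856). Both genes were lower in each batch while the groups overlapped, and IL1B, like TNFAIP3, was highest in batch 4. The calls of IL1A and IL1B each held in 7 of 9 fits without 1 library. The list medians were 0.062 for receptors and adaptors, 0.039 for kinases and ubiquitin ligases, 0.051 for other subunits and IkB proteins, -0.021 for negative regulators and 0.042 for other targets. Without 1 library the total was 1 to 7, with 3, 3 and 2 without control replicates 2, 3 and 4, and 1 and 3 without PG/VG replicates 2 and 4.

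In EC vs. PG/VG 3 of the 89 genes (3.37%) passed, beside 0.855% of all genes and 0.555% upward, and all 3 were target genes and higher in EC. CXCL2, a neutrophil chemokine, had 1.60, 1.15 and 1.37 CPM in PG/VG and 3.33, 2.43 and 2.63 CPM in EC (LFC 1.02 ± 0.22, adjusted p = 0.0292, edgeR), with 1.80 to 2.16 CPM in control between them. IL1A had 14.4, 15.0 and 18.8 CPM in EC (LFC 0.52 ± 0.12 against PG/VG, adjusted p = 0.0391), against 13.6 to 17.8 CPM in control. IER3, an early response gene that modulates apoptosis, had 36.2, 46.5 and 73.7 CPM in PG/VG and 63.4, 49.9 and 107 CPM in EC (LFC 0.49 ± 0.095, adjusted p = 0.014). The list medians were 0.072 for receptors and adaptors, 0.014 for kinases and ubiquitin ligases, -0.030 for other subunits and IkB proteins, 0.014 for negative regulators and 0.12 for other targets. The total of 3 was 0 without PG/VG replicate 2 or EC replicate 2 and 1 without any 1 of the other libraries of these conditions. Of the 21 pathway calls for which the gene was named by rule, TLR3 and CD83 in EC vs. control held in all 9 fits without 1 library.

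The genes whose log2 CPM across the 9 libraries was most like that of NFKB2 were SPIRE2 (Pearson r = 0.986), EPOP (0.984), ADAMTS15 (0.978), PTK7 (0.977) and ZNF704 (0.975). For NFKB1 they were WDHD1 (0.943), REV1 (0.942), LRRIQ3 (0.931), UNC119B (0.921) and R3HDM2 (0.907). The points are the same libraries for every gene and hold both the conditions and the batches, and the genes were picked as the highest among those tested.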

How the data were processed

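RNA of 9 BEAS-2B libraries (3 conditions, 3 replicates each) was sequenced. The deposited table holds raw counts, which the authors made with fastp, STAR (GRCh38.p12) and featureCounts of Subread 2.0.4 on exons of an Ensembl annotation, ignoring multi-mapping and multi-overlapping reads. The strand setting is not given in the sources used here. Depth was 16168260 to 24917838 counts per library, lowest in the control libraries.

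Genes reaching 10 counts in 3 or more libraries (16030) were tested with edgeR 4.0.16 in R 4.3.3, by TMM scaling, 1 quasi-likelihood fit of the 9 libraries with condition and batch, and Benjamini-Hochberg adjustment over all genes of a comparison (threshold 0.05). SE is the absolute LFC divided by the square root of F. The CPM use TMM library sizes, and 0.5 counts were added before within-batch logs. Libraries with the same number in different conditions had correlated deviations from the condition mean (r 0.304 to 0.682 in 9 pairs, against -0.507 to 0.391 in 18 pairs with different numbers), so the number in the labels, given there as batch, was used as a replicate block.

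All 10 genes are described. From 5 pathway lists (receptors and adaptors, kinases and ubiquitin ligases, other subunits and IkB proteins, negative regulators, other target genes), up to 4 called genes per list and comparison are named, those called in most comparisons and then with the largest LFC in EC vs. control, and for NFKB1 and NFKB2 the 5 genes most correlated. Markers of epithelial, leukocyte, endothelial and fibroblast cells were summed. The genes and lists were chosen with earlier results of these data known. Coordinates are of GENCODE on GRCh38, and promoter sequences of RefSeq. Alternatives were RLE and library size scaling, other count filters, DESeq2 1.42.0, ComBat-Seq (sva 3.50.0) with DESeq2, no block, the compared groups alone and each library left out. Leaving out batch 4 was added after seeing the data. The steps were tested on simulated data.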

Additional observations from a re-analysis of the deposited data

How the results depend on the processing

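In EC vs. control the count of 4 genes was 3 to 6 under the alternatives other than the removal of the replicate block, and in PG/VG vs. control the count of 3 was 2 to 4 under those that kept all libraries or left out batch 4. NFKB2, RELB and BIRC3 in EC kept their calls in every fit except that without the block. Without the replicate block, the calls among the 10 genes, and among the 89 pathway genes, were 0 in each comparison, and over all genes 16 in EC vs. control, 1 in PG/VG vs. control and 1 in EC vs. PG/VG, in place of 2157, 727 and 137. Without 1 library the 10 genes gave 3 to 5, 0 to 3 and 0 calls in the 3 comparisons (0 of PG/VG without PG/VG replicate 2, and 1 without control replicate 2 or 3), the pathway genes 6 to 16, 1 to 7 and 0 to 4, and all genes 1162 to 2172, 192 to 1084 and 32 to 208. Leaving out the batch 4 libraries, which was chosen after seeing the data, gave 8 pathway calls in EC vs. control and 1 in EC vs. PG/VG, and 1216, 324 and 80 genes in all. DESeq2 gave 8 pathway calls in EC vs. control, and 1718 genes in all. In EC vs. PG/VG the 3 pathway calls became 5 with library size scaling or no count filter and 6 with ComBat-Seq or the compared groups alone. Over all genes, PG/VG vs. control gave 1685 with ComBat-Seq and 1179 with the compared groups alone, and EC vs. PG/VG 309 without a count filter, 623 with ComBat-Seq and 318 with the compared groups alone. With ComBat-Seq, 5 of 21 pathway calls in EC vs. control were downward. With library size scaling, 486 of 2349 genes called in EC vs. control were lower, against 863 of 2157, and the median of all genes was 0.068. The cause of these differences was not tested.

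The sign of an LFC that did not pass was reversed for TNFAIP3 in EC vs. control (-0.039 without batch 4, and -0.013 to 0.22 without 1 library) and, in EC vs. PG/VG, for NFKB1 (0.024 with library size scaling, -0.058 to 0.061 without 1 library), NFKB2 (-0.012 without batch 4, -0.0092 to 0.15), RELA (-0.041 without batch 4, -0.044 to 0.073) and TRAF1 (-0.34 to 0.11 without 1 library). The filter of 10 counts in every library changed no call among the 10 genes. TRAF1 had the fewest counts of the 10 genes, 27 to 87 per library.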
